A study of Mus musculus with 12 samples.

Results

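A set of 7 genes, Nfe2l3, Tgfbr1, Ablim1, Slc8a1, St6galnac5, Ripor2 and Tmeff2, was examined in the embryonic mouse cerebral hemisphere because an earlier look at these arrays had placed the first 4 high and the last 3 low in the dorsal piece. Every probe set that the platform annotation names with one of these symbols was taken, which gave 9 probe sets among 12422 (controls left out) and 7 genes among the 8251 that the annotation names by a single symbol. The genes were chosen by their measured average differences in 1 contrast, the dorsal piece against the mean of the medial, ventral, rostral and occipital pieces. Values in that contrast are therefore given as a description, with no test.

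The tissue was cortex of mice at E16.5, late in the period of cortical neurogenesis, and the labels name no strain, sex, genotype or treatment, so the only stated difference between the 6 groups is the part of the hemisphere taken. They were the medial, dorsal, ventral, rostral and occipital pieces and the undivided hemisphere, each with 2 arrays from separate dissections. How many embryos were pooled for a dissection is not stated in the labels. The protocol text lists a lateral piece where the sample titles have a rostral one, and the titles were followed. The values are Affymetrix average differences, a linear intensity per probe set in which mismatch signal is subtracted from perfect-match signal, so that values below 0 occur. Differences were taken on the log2 scale after raising every value under 693.5 (called the floor, and set by the size of the negative values, as their root mean square) to that level, so that a difference between values under the floor is not measured. Tests covered the 5832 probe sets that exceeded 1387 (2 times the floor) on 2 or more arrays.

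At this stage of development the cortical wall holds dividing progenitors along the ventricle and young glutamatergic neurons that migrate outward into the cortical plate. Inhibitory neurons, which use GABA, are born in the ganglionic eminences at the base of the hemisphere and enter the cortex by tangential migration. The 7 genes belong to different pathways. Nfe2l3 encodes a basic leucine zipper transcription factor of the cap'n'collar family that binds DNA together with small Maf proteins. Tgfbr1 encodes the type I receptor kinase of transforming growth factor beta, which phosphorylates Smad proteins after a type II receptor has activated it. Ablim1 encodes an actin-binding LIM protein, and Slc8a1 the sodium/calcium exchanger that removes calcium from the cell in exchange for sodium. St6galnac5 encodes a sialyltransferase that adds sialic acid to gangliosides. Ripor2 encodes a regulator of cell polarity and migration, and Tmeff2 encodes a transmembrane protein with follistatin-like and EGF-like domains.

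The RefSeq table (build GRCm38.p6) held promoter windows of 300 bases, from 250 bases before to 50 after a transcription start, for 6 of the 7 genes. Of these, 3, namely Nfe2l3, Slc8a1 and Tmeff2, had 1 listed start. Their windows are shown because they are the ones for which the table leaves no choice of start, and because they include genes of both kinds, high and low in the dorsal piece. Capitals mark GGGCGG (the GC box), CCAAT and TATAAA on either strand, and these motifs were chosen after the expression values were known. The Nfe2l3 window is chr6:51432419-51432718 on the plus strand, the Slc8a1 window chr17:81738338-81738637 on the minus strand, and the Tmeff2 window chr1:50927273-50927572 on the plus strand.
Nfe2l3: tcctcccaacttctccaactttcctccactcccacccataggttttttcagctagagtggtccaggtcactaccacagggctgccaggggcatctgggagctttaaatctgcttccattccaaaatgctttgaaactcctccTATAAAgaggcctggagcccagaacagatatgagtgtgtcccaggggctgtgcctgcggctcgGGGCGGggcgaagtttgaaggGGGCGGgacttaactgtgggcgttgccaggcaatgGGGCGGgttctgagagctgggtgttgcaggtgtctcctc
Slc8a1: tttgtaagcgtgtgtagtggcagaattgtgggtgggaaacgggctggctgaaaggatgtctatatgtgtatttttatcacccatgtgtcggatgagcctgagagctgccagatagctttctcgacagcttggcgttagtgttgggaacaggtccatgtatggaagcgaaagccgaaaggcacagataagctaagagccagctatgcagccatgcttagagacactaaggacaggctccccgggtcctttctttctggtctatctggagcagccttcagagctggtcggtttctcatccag
Tmeff2: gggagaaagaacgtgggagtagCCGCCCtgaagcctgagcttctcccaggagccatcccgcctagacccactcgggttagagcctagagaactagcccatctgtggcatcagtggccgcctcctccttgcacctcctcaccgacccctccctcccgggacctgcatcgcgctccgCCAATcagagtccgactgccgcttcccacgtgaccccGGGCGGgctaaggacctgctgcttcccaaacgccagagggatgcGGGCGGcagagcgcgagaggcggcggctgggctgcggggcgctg

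Between these genes the windows were unlike. The Nfe2l3 window held 3 GC boxes and 1 TATAAA match, and the Tmeff2 window held 3 GC boxes and 1 CCAAT match. In the Slc8a1 window these letters occurred 0 times. Over all 32851 windows of the table, 35.7% held a GC box, 37.4% a CCAAT match and 13.6% a TATAAA match. Among the windows shown, GC boxes thus occurred in 1 gene of each kind. Some of the windows not shown, of Tgfbr1, Ablim1 and Ripor2, held a GC box as well. The arrays do not show which start was used.

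Across the tested probe sets, the correlation between the 2 arrays of a group was 0.901 to 0.962, and array medians ran from 736.9 to 851.4. Rostral replicate 2 and occipital replicate 1 were each the closest array of the other (r = 0.963), above the correlation of either with its own replicate (0.934 and 0.936). The same held for medial replicate 1 and dorsal replicate 1 (0.965, against 0.934 and 0.962). It also held for occipital replicate 2 and hemisphere replicate 2 (0.969, against 0.936 and 0.901). Only dorsal replicate 2 and both ventral arrays were closest to their own replicate. Markers fixed for the cortex, Pax6, Eomes, Neurog2, Neurod6, Tbr1 and Fezf2, were the 6 of 12 listed that the annotation holds, and all 6 passed the intensity filter. That filter does not ask for signal in every piece. In the ventral piece Eomes (mean 236) and Neurog2 (319) were under the floor, whereas Tbr1 averaged 20700. The summed level of the 6 was 28900 to 31800 in the ventral, 62600 to 63700 in the dorsal and 64000 to 68300 in the medial piece. It was 47600 to 56400 in the rostral and 51400 to 53100 in the occipital piece. Ratios of the 5' to the 3' beta-actin probe sets ran from 0.604 to 0.831 on the arrays numbered 1 and from 0.804 to 0.887 on those numbered 2.

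Of the 4 genes on the high side, Tgfbr1 and Slc8a1 had the same order of group means on values before the floor. It ran from dorsal through rostral, medial and occipital to ventral, although most neighbours below the dorsal piece overlapped. For Tgfbr1 this order is hardly measured, since 4 of the 8 other arrays lay under the floor. On floored log2 means its medial piece (9.594) stood above the rostral (9.526). Ablim1 had another order, and Nfe2l3 had no measured order below the dorsal piece. Nfe2l3 was measured above the floor in the dorsal piece, with average differences of 1952 and 1705 on replicates 1 and 2. Its values were 282 and 242 in the medial piece, 303 and -67.2 in the ventral, 486 and 167 in the rostral and 103 and 90.7 in the occipital. All 8 arrays of the other pieces thus lay under the floor and have no order among themselves. The dorsal mean was 1830 ± 175 (SD, n = 2), at least 2.63-fold the floor to which the others were raised. In the whole hemisphere replicate 1 read 1082 and replicate 2 read 345, so one hemisphere array lay above the floor and one below. The gene passed the intensity filter only through its 2 dorsal arrays.

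Tgfbr1, the receptor of the 7, read 1488 and 1648 in the dorsal piece, a mean of 1570 ± 113 (SD, n = 2). The medial piece gave 861 and 581, the rostral 718 and 758, the occipital 762 and 132, and the ventral 242 and 267. No array of another piece reached the dorsal ones, and the highest of them was at 861. Of these 8 arrays, 4 lay under the floor, so the 2.14-fold dorsal excess (log2 1.10 on floored values) depends on it. The whole hemisphere read 351 and 286, which is 0.427 of the mean of the 5 pieces and under the floor. Tgfbr1, like Nfe2l3, entered the fit only through its dorsal arrays.

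Ablim1 and Slc8a1 were above the filter level on all 12 arrays, so their differences do not rest on the floor. Ablim1, the actin-binding gene, read 5433 and 4536 in the dorsal piece and 3734 and 3444 in the ventral piece. The rostral arrays were at 2803 and 2286, the occipital at 2443 and 2789 and the medial at 2278 and 1985. The ventral piece came second and lay above every rostral, occipital and medial array. The dorsal mean was 4980 ± 634 (SD, n = 2) against 2720 ± 605 (SD, n = 8), which is 1.86-fold on log2 means. The excess was 2.33-fold over the medial piece and 1.38-fold over the ventral. The hemisphere arrays, at 2685 and 2640, lay within the range of the rostral and the occipital ones.

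Slc8a1, the calcium exporter, had the tightest values of the 4. The dorsal arrays read 9078 and 8801, a mean of 8940 ± 196 (SD, n = 2). The medial arrays read 5000 and 5281, the rostral 5131 and 5220, the occipital 4690 and 4898 and the ventral 3719 and 5030, with a mean over all 8 of 4870 ± 502 (SD). The dorsal piece was 1.84-fold higher on log2 means, and between 1.73-fold and 2.07-fold higher than each single piece. Apart from dorsal, the pieces stood close together. The rostral and the medial arrays lay above the occipital ones, and the ventral pair overlapped with the rest except rostral. Of the 2 further probe sets with the symbol, one ran from 18.7 to 246.9 and the other from -279.5 to 620.7 over the 12 arrays, so both stayed under the floor throughout and were not tested. The Slc8a1 values therefore come from 1 of 3 probe sets.

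**Figure D1:**
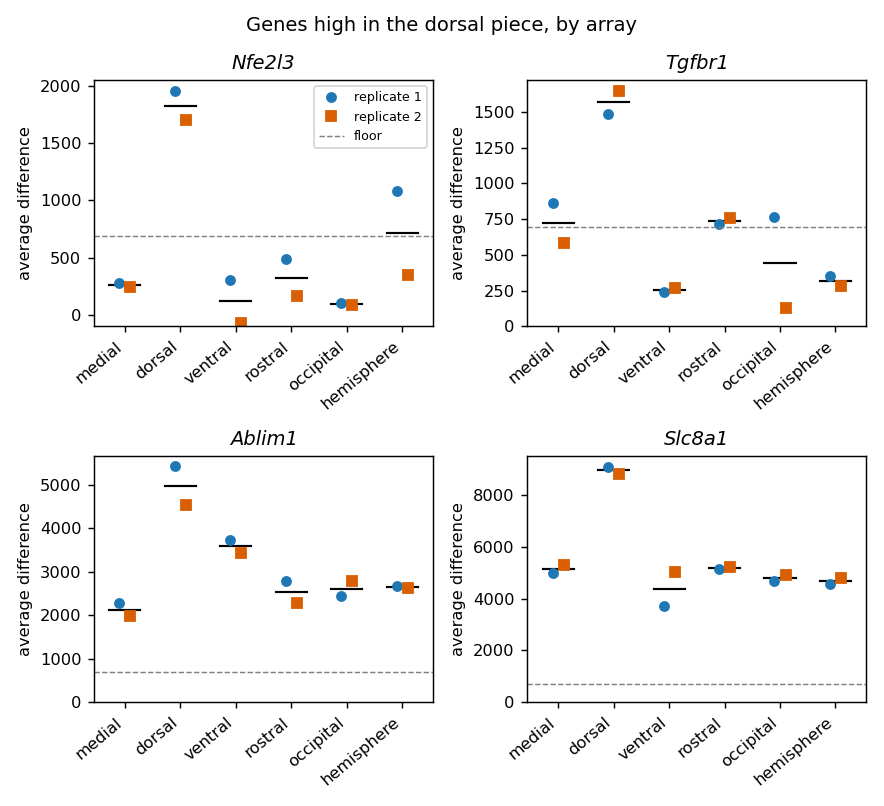
Average difference (linear intensity) of Nfe2l3, Tgfbr1, Ablim1 and Slc8a1 on each of the 12 arrays, by group; circles are replicate 1, squares replicate 2, black lines the mean of both and the dashed line the floor at 693.5. Both dorsal arrays lie above all others in each panel, and Ablim1 has its second-highest values in the ventral piece (3734 and 3444).

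The 3 genes on the low side fell into different patterns. St6galnac5, the sialyltransferase, was low in the dorsal piece and intermediate in the medial piece. It read 632 and 720 in the dorsal piece, at and near the floor, and 2151 and 1812 in the medial. The ventral arrays read 3096 and 3518, the rostral 4614 and 2945 and the occipital 2845 and 4193. The dorsal mean was 676 ± 62.3 (SD, n = 2) against 3150 ± 948 (SD, n = 8), 4.27-fold lower on log2 means. It was 2.79-fold lower than the medial piece and between 4.66-fold and 5.21-fold lower than the 3 other pieces, and 1 of the 2 dorsal arrays was under the floor. The medial arrays lay above the dorsal and below every other array of the study. The rostral and occipital values spread widely and in opposite order between replicates, so that the ventral, rostral, occipital and hemisphere arrays overlapped.

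Ripor2, the cell polarity gene, was low in both the dorsal and the medial piece. The dorsal arrays read 773 and 727 and the medial 831 and 1189. The rostral arrays were at 2785 and 3074, the occipital at 2858 and 3093 and the ventral at 4167 and 3796. Dorsal and medial arrays did not overlap, but the medial excess was 1.33-fold, whereas the ventral excess over dorsal was 5.31-fold. The dorsal mean was 750 ± 32.7 (SD, n = 2) and that of the other 4 pieces 2720 ± 1160 (SD, n = 8), a 3.23-fold difference on log2 means. The hemisphere arrays read 3207 and 2256, one above and one below the rostral and occipital arrays.

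Tmeff2, the EGF-like membrane protein, did not separate the dorsal from the medial piece on the floored scale. It read 484 and 425 in the dorsal and 723 and 510 in the medial piece, where 3 of these 4 values were under the floor. The rostral arrays read 2046 and 1386, the occipital 1673 and 2123 and the ventral 2759 and 3378. The dorsal mean was at least 2.33-fold lower than that of the other 4 pieces on floored log2 means, but its log2 difference from the medial piece alone was -0.030. From the ventral piece it was at least 4.41-fold lower. As a gene that sets the dorsal piece apart, Tmeff2 is therefore better described as low in the dorsal and medial pieces together.

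**Figure D2:**
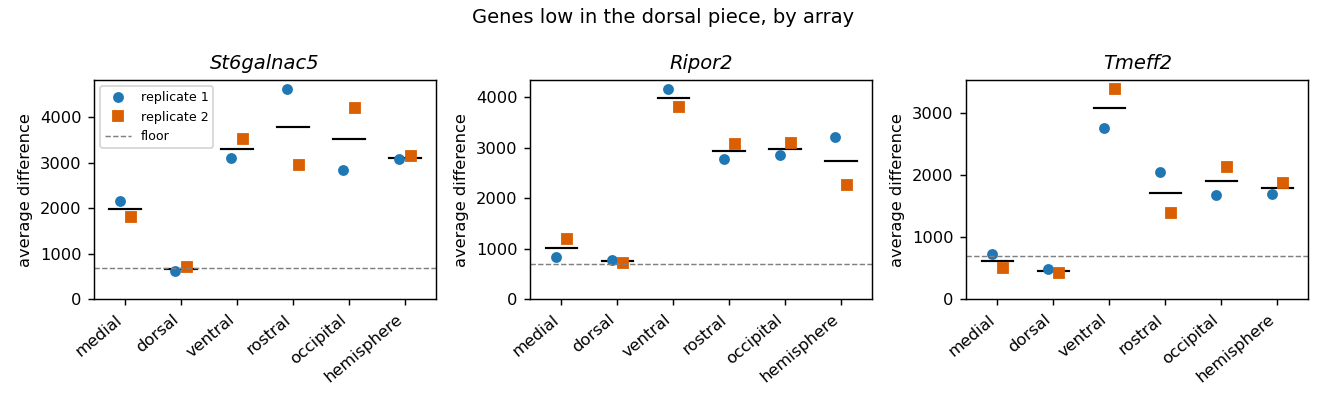
Average difference (linear intensity) of St6galnac5, Ripor2 and Tmeff2 on each of the 12 arrays, by group; circles are replicate 1, squares replicate 2, black lines the mean of both and the dashed line the floor at 693.5. For Ripor2 and Tmeff2 the medial arrays (831 and 1189, and 723 and 510) sit near the dorsal ones, while for St6galnac5 they are at 2151 and 1812.

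In the contrast that chose the genes all 7 were among the 16 probe sets past an adjusted p of 0.05 in limma, which is 0.274% of those tested (0.12% higher and 0.154% lower in the dorsal piece), and nothing is read from that count. By size of difference the 4 high genes ranked 9, 17, 34 and 37 among the rises and the 3 low ones 4, 10 and 32 among the falls. On values before the floor, the 2 dorsal arrays lay outside the range of the other 8 for each of the 7. On floored values Tmeff2 is left out, because its dorsal arrays tie with 1 medial array at the floor. Over all tested probe sets, also on floored values, the dorsal arrays lay apart in 2.81% above and in 2.01% below. These values chose the genes, and the floor fixes 1 side of the difference for Nfe2l3 (all 8 other arrays) and Tmeff2 (both dorsal arrays). By replicate, the difference for Nfe2l3 was 1.49 and 1.30 in log2, for Tgfbr1 0.98 and 1.22, for Ablim1 0.98 and 0.82, and for Slc8a1 0.98 and 0.79. St6galnac5 gave -2.14 and -2.05, Ripor2 -1.57 and -1.82, and Tmeff2 -1.22 in both. A piece with fewer cells that express a gene and a piece with less of its RNA per cell cannot be told apart in these bulk samples.

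**Figure D3:**
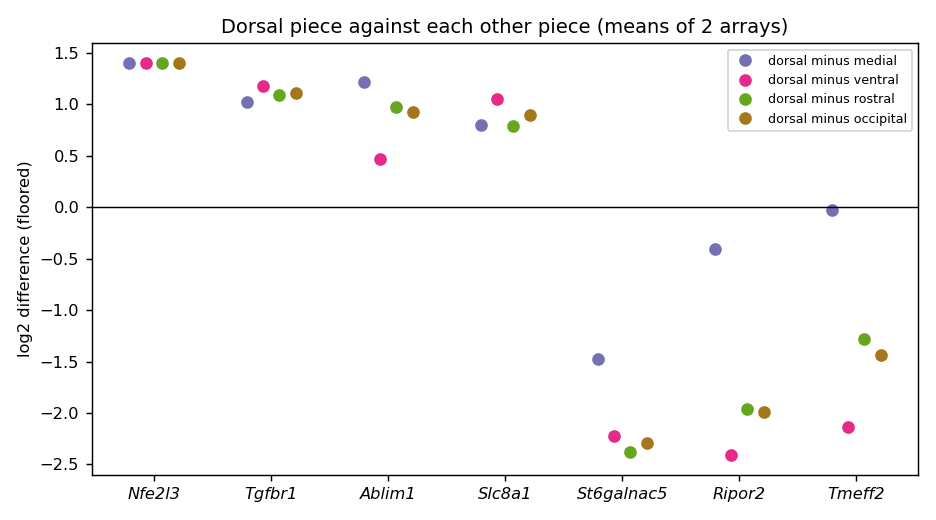
Log2 difference of the dorsal piece from each of the 4 other pieces, from means of 2 floored arrays per piece, for the 7 genes; each colour is one of the other pieces and the line marks no difference. Ablim1 is closest to the ventral piece (0.47), whereas Ripor2 (-0.41) and Tmeff2 (-0.030) are closest to the medial piece.

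Comparisons among the 4 non-dorsal pieces use the same estimate of spread per probe set as the contrast that chose the genes. Their p-values are thus not independent of the choice. The differences among these pieces do not enter that contrast, and they show which of the 7 vary along another axis as well. Ripor2 and Tmeff2 did: limma's F-test over the medial, ventral, rostral and occipital pieces passed them with adjusted p = 0.00763 and 0.00717, with the ventral mean above and the medial mean below those of the other pieces. The earlier results had already shown the ventral maximum of Ripor2, so its call is no independent support. Over all probe sets 3.57% passed (208). Nfe2l3 and Tgfbr1 had entered the fit only through their dorsal arrays, so the 2 passing genes stand among 5 whose entry did not rest on these. In the medial piece both passing genes were near the floor: Tmeff2 read 723 and 510 there, and Ripor2 831 and 1189. Ablim1 (adjusted p = 0.153), St6galnac5 (0.204), Slc8a1 (0.899) and Tgfbr1 (0.999) did not pass, and for Nfe2l3 all 8 arrays were at the floor, so that nothing was compared. The calls of Ripor2 and Tmeff2 were lost when certain single arrays were left out. The adjusted p of Ripor2 was 0.0594 without medial replicate 1, 0.0591 without ventral replicate 1 and 0.0553 without ventral replicate 2. For Tmeff2 it was 0.0503 without medial replicate 1, 0.0600 without medial replicate 2, 0.0548 without ventral replicate 1, 0.0583 without ventral replicate 2 and 0.0613 with 2 times the floor. The count of 208 was 116 without either dorsal array, 61 without medial replicate 1 and 51 without medial replicate 2. Leaving out ventral replicate 1 gave 6, and leaving out ventral replicate 2 gave 8.

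Between the ventral and the medial piece alone, 3 of the 7 genes differed, all higher in the ventral piece. Over all probe sets limma passed 11.2% (656), with 5.2% higher and 6.05% lower in the ventral piece. Tmeff2 rose by 2.11 ± 0.22 in log2 (SE, n = 2 per piece), from a mean average difference of 617 ± 150 to 3070 ± 438 (SD) (adjusted p = 0.00119). Of its 2 medial arrays 1 was under the floor, so that the size follows it: the difference was 2.33 with 0.5 times and 1.14 with 2 times the floor. Ripor2 rose by 2.00 ± 0.23 in log2 (SE), from 1010 ± 253 to 3980 ± 263 (SD) (adjusted p = 0.00137). Ablim1 rose 1.69-fold, by 0.75 ± 0.18 in log2 (SE), from 2130 ± 207 to 3590 ± 205 (SD) (adjusted p = 0.0278). St6galnac5 differed by 0.74 ± 0.25 (SE, adjusted p = 0.106), and its adjusted p was 0.0422 in a fit without the rostral and occipital arrays, an alternative added after the data were seen. Slc8a1 (-0.25 ± 0.17 SE, adjusted p = 0.435) did not pass. For Tgfbr1, 3 of the 4 arrays were under the floor, so its difference of -0.16 ± 0.16 (SE, adjusted p = 0.630) was hardly measured. It was -1.03 with 0.5 times the floor (limma adjusted p = 0.0942) and -0.78 on the arcsinh scale (0.160). Tmeff2 and Ripor2 passed whichever single array was left out, although without a medial or ventral array that piece has 1 array, which is assumed to vary like the other groups. Ablim1 did not pass without medial replicate 1 (adjusted p = 0.0813) or 2 (0.159), or without ventral replicate 1 (0.154) or 2 (0.0951). The count of 656 was 246 without medial replicate 1, 253 without medial replicate 2, 215 without ventral replicate 1 and 253 without ventral replicate 2.

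**Figure D4:**
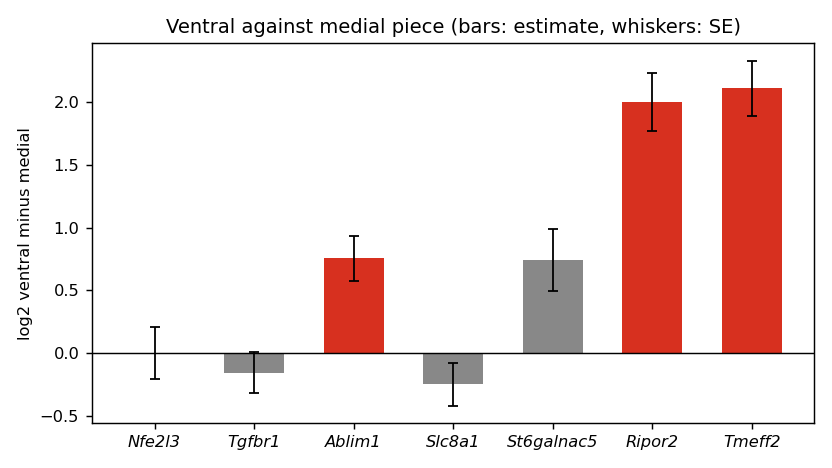
Log2 difference between the ventral and the medial piece for the 7 genes; bars are limma estimates on floored values, whiskers are SE, red bars passed an adjusted p of 0.05 and grey bars did not. Ablim1 (0.75), Ripor2 (2.00) and Tmeff2 (2.11) are red, and Nfe2l3 has no bar because all 4 arrays lay under the floor.

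Markers of GABAergic cells and the ganglionic eminences had their lowest sums in the medial and dorsal pieces, where Ripor2 and Tmeff2 were also lowest. All 10 markers listed passed the filter, and their summed average difference was 19100 to 23300 in the medial and 23500 to 26400 in the dorsal piece. It was 52100 to 76500 in the occipital, 52900 to 71700 in the rostral and 116000 to 126000 in the ventral piece. Sst, at a mean of 46500, was the largest part of the ventral sum. Some single markers went another way: Dlx1, Dlx2 and Dlx5 had their highest means in the occipital piece. Lhx6 was higher in the dorsal (7150) than in the occipital piece (6610). Ripor2 and Tmeff2 followed the split of the summed level, with medial and dorsal on one side, the 3 other pieces on the other and the ventral piece highest. St6galnac5 did not follow it, since its medial arrays lay between the dorsal and the other ones and its highest mean was rostral. Of the 10 markers, 1 passed in the dorsal contrast, Gad1, which makes GABA (log2 -1.66, limma adjusted p = 0.0396). Its mean was as low in the medial piece (2830) as in the dorsal (2960), against 11600 to 21000 in the 3 other pieces. The part of these cells in the values of Ripor2 and Tmeff2 was not tested.

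Among markers of microglia and other myeloid cells, 1 of the 4 tested, the chemokine gene Ccl4, rose in the dorsal piece (log2 2.22, limma adjusted p = 0.000394). Like Nfe2l3 and Tgfbr1, Ccl4 entered the fit only through its dorsal arrays. The other 8 regional arrays ran from -139.3 to 523.6, all under the floor, so its call is a description. The summed level of all 10 was 8610 and 9060 in the dorsal piece and 5920 to 8010 in the 8 arrays of the other pieces. Without Ccl4 the sum was 5870 and 5230 in the dorsal piece, and 5390 to 7800 in the others. The 3 other tested markers did not pass: Csf1r, the receptor of a macrophage growth factor, averaged 1520 in the dorsal piece (log2 -0.053), and the complement genes C1qa and C1qc averaged 1440 (-0.14) and 985 (-0.45), each with a limma adjusted p of 0.999. The remaining 6 (C1qb, Ccl3, Cd68, Tyrobp, Aif1 and Lyz2) stayed below the filter level on all 12 arrays, and of these Aif1 and Lyz2 were at or near 0, with no array above 83.3 and 106.8. The part of myeloid cells in the values of the 4 high genes was not tested. For the choroid plexus, endothelial, meningeal, red blood cell and thalamic lists, 0 of their tested markers passed in the dorsal contrast (2, 2, 4, 2 and 1 tested, limma). The choroid plexus sum was lowest in the dorsal and ventral pieces, at 1430 to 1710 and 1420 to 2240, against 3480 to 9140 in the medial.

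Rostral against occipital passed 0 of the 7 genes and 0% of the 5832 probe sets in limma (62 probe sets at an unadjusted p under 0.05, none of them a probe set of the 7 genes). For St6galnac5 the rostral minus occipital difference was 0.70 in replicate 1 and -0.51 in replicate 2, and for Tmeff2 it was 0.29 and -0.61. Ripor2 was alike in both pieces, with -0.037 and -0.0093. The group means of the rostral and occipital pieces thus average unlike arrays for the first pair. Arrays numbered 2 against those numbered 1, in a fit with a mean for each group, differed for 17.2% of the probe sets (1004) and for 0 of the 7 genes by limma. Adjusted p-values of the 7 ran from 0.365 for Ablim1 to 0.976 for Ripor2. That count was 240 without either medial array, 261 without either dorsal, 319 without either ventral, 477 without either hemisphere and 651 without either rostral array, and 0 of the 7 genes passed in each.

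The whole hemisphere gave a level near the mean of the 5 pieces for 5 of the 7 genes. Its mean was 1.17 times that mean for St6galnac5 and Ripor2, 1.15 times for Tmeff2, 0.839 times for Ablim1 and 0.822 times for Slc8a1. For Nfe2l3 it was 1.36 times and for Tgfbr1 0.427 times, but many of the values behind these are under the floor. The 3 genes on the low side thus stood somewhat above, and Ablim1 and Slc8a1 somewhat below, an equal mix of the pieces. For St6galnac5 the hemisphere arrays read 3076 and 3136, and for Tmeff2 1700 and 1871. Slc8a1 read 4545 and 4805 there, within the range of the ventral arrays. The share of each piece in the hemisphere is not known, and no test was made because the dorsal arrays enter the mean.

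The genes whose pattern was most like that of each gene over the 12 arrays were found by Pearson's r on floored log2 values. The dorsal arrays that chose the genes are among the 12, so that r is a description. Ccl4 was nearest to Tgfbr1 (r = 0.977) and Nfe2l3 (0.925) and second to Slc8a1 (0.924). Ccl4 averaged 3280 in the dorsal piece, while the other 8 regional arrays ran from -139.3 to 523.6, all under the floor. Mef2c, a neuronal transcription factor, was nearest to Slc8a1 (0.925), at 8970 ± 258 (SD, n = 2) in the dorsal piece and 3065 to 5994 in the others. The ubiquitin ligase gene Znrf2 followed Nfe2l3 (0.907), Tgfbr1 (0.883) and Slc8a1 (0.871), and was 2790 in the dorsal piece against 1523 to 2042. Next for Nfe2l3 came the homeobox gene Cux1 (0.865), with 12700 in the dorsal piece against 4700 to 8365. Next for Tgfbr1 came the semaphorin gene Sema7a (0.836), with 8060 against 2716 to 4974.

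For Ablim1 the nearest were Tab3 (r = 0.900), the neuropeptide gene Npy (0.894) and the autophagy kinase gene Ulk2 (0.890). Npy shared with Ablim1 the order dorsal before ventral before medial, with a dorsal mean of 26700 ± 878 (SD, n = 2) and 4480 to 17190 on the other 8 arrays. St6galnac5 was most like the receptor phosphatase gene Ptprg (0.932), the cell adhesion gene Cadm1 (0.868) and Gabrb1 (0.858), a subunit of the GABA-A receptor. Ptprg averaged 776 ± 194 (SD, n = 2) in the dorsal piece and ran from 1422 to 2300 in the others. Gabrb1 averaged 609 ± 68.4 (SD, n = 2), with 1597 to 6603 elsewhere. Ripor2 was most like Gad1 (0.945), the imprinted gene Ndn (0.942) and the homeobox gene Pbx3 (0.936). Tmeff2 was most like Celf4 (0.973), which encodes an RNA-binding protein, the ephrin gene Efnb3 (0.969) and the calcium buffer gene Calb1 (0.969). These 6 genes all had positive ventral minus medial log2 differences, from 1.28 for Ndn to 4.37 for Pbx3. The probe sets of Cadm1, Ndn, Pbx3 and Celf4 are of kinds that can match more than one related sequence.

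Relatives of 6 of the genes (all but Ripor2), taken from 6 lists of pathway and family members, were compared in the same contrast. Of 79 such genes tested, 0 rose and 1 fell in the dorsal piece by limma, or 1.27%, beside 0.274% of all probe sets. The lists count 1 probe set per gene and were chosen with earlier results known, so these shares are not alike. The gene that fell was Calb2 (calretinin), a calcium-binding protein of interneurons and other early neurons, at 881 ± 203 (SD, n = 2) against 3340 ± 667 (SD, n = 8), a log2 difference of -1.91 ± 0.27 (SE) with a limma adjusted p of 0.0391. The count of 1 was 0 without any single medial, dorsal, ventral, rostral or hemisphere array, and it stayed 1 without either occipital array. The medians of the 6 lists in this contrast ran from -0.34 to 0.20, and that of all tested probe sets was 0.015.

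Of 11 tested genes of the TGF-beta and activin pathway other than Tgfbr1, 0 passed in the dorsal piece by limma, with a median of 0.20. The largest differences were -0.83 (adjusted p = 0.409) for the activin receptor gene Acvr2a and 0.55 (adjusted p = 0.934) for the inhibitory Smad gene Smad7. Among 9 cap'n'collar factors, Maf partners and antioxidant genes, the median was 0.027 and the largest differences were -0.69 (adjusted p = 0.193) for the glutathione transferase gene Gstm1 and 0.43 (adjusted p = 0.851) for Bach1, a repressor of the same family as Nfe2l3. For 10 genes of sodium and calcium transport, which include Calb2, the median was -0.34.

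In the 16 tested sialyltransferase and ganglioside genes the median was 0.054, and the largest differences were 0.61 (adjusted p = 0.373) for St6gal1 and -0.34 (adjusted p = 0.649) for St8sia3, both sialyltransferases. The 23 LIM and cortical actin genes had a median of -0.0082, with -0.62 (adjusted p = 0.199) for Fhl1 and -0.55 (adjusted p = 0.999) for Dmtn. The 10 EGF family and follistatin-domain genes had a median of -0.26, with -0.69 (adjusted p = 0.274) for the matrix protein gene Sparc and -0.55 (adjusted p = 0.999) for Smoc1. By limma, 0 genes passed in these 3 lists.

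Between the ventral and the medial piece 14 of these 79 relatives were higher and 6 lower in the ventral piece (25.3%, beside 11.2% of all probe sets, by limma). Here too the shares are not alike, for the reasons given above, and nothing is read from their difference. In the transport list 4 of 10 rose and 0 fell. They were Calb1 (2.64, adjusted p = 0.00353), the sodium pump subunit genes Atp1b1 (1.23, adjusted p = 0.00350) and Atp1b3 (0.60, adjusted p = 0.0459), and Fxyd7 (2.99, adjusted p = 0.00917), which encodes a regulator of the same pump. The ganglioside list had 3 of 16 up, the glucosylceramide synthase gene Ugcg (1.03), B4galt6 (1.08) and Cmas (0.74), which activates sialic acid, and 1 down, St6gal1 (-1.03, adjusted p = 0.0247). In the actin list 3 of 23 rose, Dmtn (2.97), the LIM kinase gene Limk2 (0.73) and the profilin gene Pfn2 (0.61), and 3 fell, Lima1 (-2.32, adjusted p = 0.00108), Pdlim7 (-1.17) and Csrp2 (-0.91). Of the EGF and follistatin-domain list Pdgfa (1.56) and Tgfa (1.47), both growth factors, rose and Fstl1 (-1.30) fell. In the TGF-beta list Acvr2a rose (1.43, adjusted p = 0.0267) and Smad4, the shared partner of the receptor-activated Smads, fell (-0.91, adjusted p = 0.0369). Gstm1 (0.82, adjusted p = 0.0350) was the 1 gene of 9 in the cap'n'collar list that passed, and it rose. Both medial arrays of Calb1, Fxyd7 and Tgfa, 1 medial array of Dmtn and both ventral arrays of Lima1 were under the floor, so the sizes given for these 5 depend on it. The probe sets of Atp1b1 and Gstm1 are of a kind that can match several related sequences.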

How the data were processed

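RNA of 12 mouse samples was hybridised to Affymetrix arrays. The deposited intensity per probe set is the average difference, per the labels. From the values, the authors had scaled the arrays to one 2% trimmed mean (2501.6 to 2501.9). The software is not given in the sources used here. No further scaling was applied. The 66 control probe sets among the 12488 were dropped. The molecule field says total RNA, while the protocol text describes poly(A)+ RNA.

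Differences came from limma 3.58.1 in R 4.3.3, with all groups in a single model of group means (6 residual and 2.86 prior degrees of freedom). Two-sided p-values were adjusted over 5832 probe sets (Benjamini-Hochberg), with a threshold of 0.05. Such p-values measure the spread between 2 dissections. Without a replicate term in the model, that spread includes what arrays of equal number share. The fits were tested on simulated data. The 7 genes and the lists were chosen with earlier results of these data known. The text names the 7 genes, list members that passed (at most 6 a list, or the 2 largest differences where 0 passed) and the 3 genes most like each gene. A gene with several probe sets is given by that with the highest mean. RefSeq gene IDs matched all 7 genes and changed 0 symbols. Arrays with equal numbers were not treated as pairs in the main fit, because the labels do not say that a number marks a shared dissection. Their deviations from group means nevertheless correlated at -0.06 to 0.562, above 0.1 in 14 of 15 group pairs. Alternatives were other floors, filters, quantile normalization, an arcsinh scale, other variance settings, a replicate block, fewer groups and each array left out. A list of relatives of Ripor2 is not reported here.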

Additional observations from a re-analysis of the deposited data

How the results depend on the processing

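The dorsal differences of the 7 genes kept their sign under every alternative in which the genes entered the fit. A filter on at least 4 arrays drops Nfe2l3 and Tgfbr1. This contrast chose the genes, so the kept sign is no support. For genes at the floor, the size of the difference followed the floor. With 0.5 times and with 2 times the floor, Nfe2l3 gave 2.33 and 0.395 (log2, 1.40 as reported), and Tmeff2 -1.78 and -0.465 (-1.22). With 2 times the floor Tgfbr1 gave 0.175 (1.10), St6galnac5 -1.12 (-2.09) and Ripor2 -0.924 (-1.69). Slc8a1 stayed between 0.829 and 0.938. Against the mean of medial and ventral only, St6galnac5 gave -1.85, Ripor2 -1.41 and Tmeff2 -1.08. The dorsal count of 16 probe sets was 7 with 0.5 times the floor, 7 on the arcsinh scale, 45 with the replicate block, and 2 to 16 with 1 array left out. The list count of 1 was 0 with 0.5 times the floor, 2 times the floor, no filter or the arcsinh scale, and 0 to 1 with 1 array left out.

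The F-test count of 208 was 134 without the filter, 457 with the replicate block, 112 with only the 4 pieces fitted, and 6 to 252 with 1 array left out. The 2 of the 7 genes passing it became 1 with 2 times the floor and 0 to 2 with 1 array left out. For ventral against medial the 656 became 1063 with the replicate block, 356 with only these arrays (Ablim1 then at adjusted p = 0.0887), and 215 to 776 with 1 array left out. The block changed no call among the 7 genes. The replicate count of 1004 was 174 without the filter and 240 to 1119 with 1 array left out. Rostral against occipital gave 0 in each alternative. With 2 arrays per group, signals near the floor limit what could be measured.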
